A study of Mus musculus with 9 samples.

Results

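The genes described here are 10 transporters that carry dipeptides, tripeptides and amino acids across the cells of the small intestine: Slc15a1, Slc36a1, Slc6a19, Slc6a20a, Slc7a9, Slc3a1, Slc1a1, Slc7a7, Slc7a8 and Slc3a2. They were taken by name, through their Ensembl identifiers, from a table of 31685 genes. The list of 10 was drawn up with earlier results of these data known. All 10 passed the filter on low values (3 or more mice with an FPKM of 1 or above), as did 13056 genes in all. RNA came from wild-type adult male C57BL/6J mice in 3 groups of 3: untreated controls, mice given 12 Gy of total abdominal irradiation by X-rays at 75 cGy/min and then phosphate-buffered saline (TAI), and mice given the same irradiation and 500 mg/kg of intravenous immunoglobulin, a pooled human IgG preparation, within 1 h (TAI/IVIg). Injections were to be repeated every 3 days, and the tissue was taken on day 3 after irradiation. It is labelled as jejunal epithelial tissue from a single batch. The labels list the mice as separate samples and say nothing of litters or cages, so p-values measure the spread between these mice. No group analysed here received immunoglobulin without irradiation or saline alone.

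Protein in the gut lumen is cut by enzymes into small peptides and free amino acids, which enterocytes, the absorptive cells of the villus, take up through their apical brush border and release to the blood through their basolateral side. Peptides enter together with protons, neutral amino acids mostly with sodium, and cystine and basic amino acids in exchange for neutral ones through a pair of proteins in which a heavy chain brings a light chain to the membrane. The basolateral side uses pairs of the same design, so the level of a light chain and that of its heavy chain are of interest together.

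Libraries held 16282029 to 18242473 reads assigned to genes (median 17311011), recovered from the steps of the FPKM values, where FPKM is the number of fragments scaled to transcript length and library size. At this depth the lowest value among the 10 genes, Slc1a1 in a TAI/IVIg mouse, still rested on 157 reads. The tissue label was checked against genes that mark cell types and gut segments. Vil1, a structural protein of the brush border, was between 794 and 1157 FPKM in all 9 mice. Fabp6, which binds bile acids in the ileum, stood at 7415, 8177 and 7326 FPKM in the control mice, where it ranked 2 to 5 among all genes. It stood at 1372, 1874 and 3529 FPKM in the TAI mice and at 1351, 208 and 229 FPKM in the TAI/IVIg mice. Lct, the lactase of the upper small intestine, was ordered the other way, at 6.85, 16.6 and 4.82 FPKM in control mice, at 189.6, 210.2 and 106 FPKM in TAI mice and at 216, 341 and 343 FPKM in TAI/IVIg mice. The summed FPKM of 5 ileal genes was 8160 to 9020, 1960 to 4220 and 528 to 1830 in the 3 groups. Of these, 2 fell in TAI and all 5 in TAI/IVIg against control, where 26.1% and 37.4% of all genes tested fell. Gata4, a factor of the upper small intestine, lay between 11.1 and 22.6 FPKM throughout. All TAI mice lay below all controls in it (−0.48 on the log2(FPKM + 1) scale, limma adjusted p = 0.0713), while the TAI/IVIg mice overlapped the controls. The summed FPKM of 6 duodenal genes, Gata4 among them, was 18.7 to 24.8, 12.8 to 19.5 and 17.7 to 22.8 in the 3 groups. That sum did not follow the order of Lct, but Gata4 made up most of it in every mouse. Only 1 of the 6 genes, Gata4, passed the filter, so the sum adds little to Gata4 alone. The control mice thus held an ileal gene at a very high level under a jejunal label. The level along the gut at which the tissue was cut and the treatment cannot be told apart in these libraries, and the part of that level in each difference below was not tested. The summed FPKM of 12 enterocyte genes was 16100 to 24600 in control, 33900 to 53300 in TAI and 47600 to 53600 in TAI/IVIg mice. The 12 did not move as one, since 6 rose and 1 fell in TAI and 8 rose and 1 fell in TAI/IVIg against control. Over all genes tested, 8.81% and 9.06% rose and 26.1% and 37.4% fell. Apoa4, an apolipoprotein of fat absorption, rose by 2.91 and 3.42 on the log2(FPKM + 1) scale, while Krt8, a keratin, fell by 0.61 in both, and Sis, the sucrase-isomaltase, had −1.12 and −0.95 and did not pass. Control mouse 3 had the highest sum of immune genes, 257 FPKM against at most 68.7 elsewhere, and TAI/IVIg mouse 3 had the lowest sum of muscle genes, 113 FPKM against 302 to 765. The share of these markers in the transporter values was not tested. In bulk tissue, fewer cells of a type and less RNA per cell cannot be told apart.

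**Figure D1:**
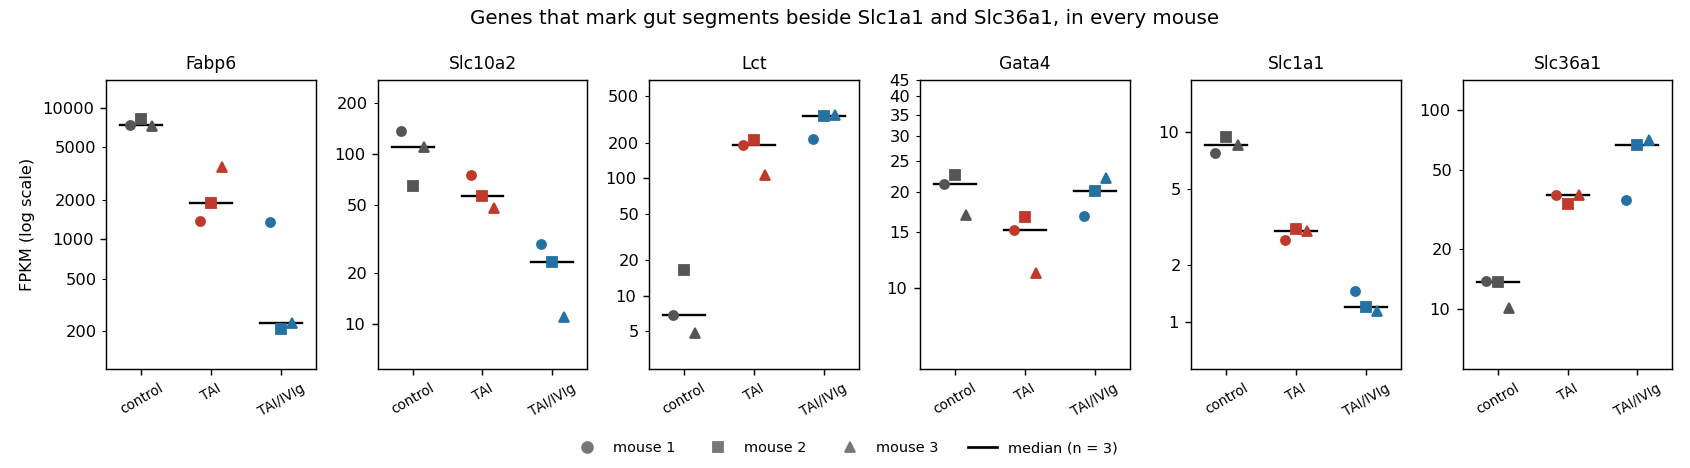
FPKM on a log axis, a panel per gene, of the ileal genes Fabp6 and Slc10a2, the upper intestinal genes Lct and Gata4, and the transporters Slc1a1 and Slc36a1. Points are mice and lines are medians of 3 mice. Fabp6 lay between 7326 and 8177 in control mice and at 208 and 229 in TAI/IVIg mice 2 and 3, while TAI/IVIg mouse 1 (1351) lay just below the lowest TAI mouse (1372).

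The stretches just before the starts of 3 genes whose RNA was higher after irradiation and of 1 whose RNA was lower are shown because transcription factors of the enterocyte act on such stretches, and several of those factors were themselves measured. They come from the RefSeq annotation of GRCm38.p6, are read 5′ to 3′ on the gene's own strand, and end before the gene start in both RefSeq and GENCODE M21. Capitals mark matches on either strand to 5 motifs, HNF4 (CAAAGTCCA), CDX (TTTATNG), CARE (TGATGNAA, bound by ATF4), SP1 (GGGCGG) and CLEAR (CACGTGAC, bound by TFEB, the last added after these stretches had been read), none of which overlapped another here. The stretch of Slc15a1 lies at chr14:121505255-121505504 (minus strand), Slc36a1 at chr11:55204090-55204339 (plus strand), Slc3a1 at chr17:85028097-85028346 (plus strand) and Slc1a1 at chr19:28834885-28835048 (plus strand).
Slc15a1: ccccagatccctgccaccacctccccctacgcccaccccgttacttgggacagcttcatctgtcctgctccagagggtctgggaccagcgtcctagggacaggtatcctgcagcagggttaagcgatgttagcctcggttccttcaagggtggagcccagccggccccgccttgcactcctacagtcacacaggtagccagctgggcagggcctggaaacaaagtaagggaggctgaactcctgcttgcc
Slc36a1: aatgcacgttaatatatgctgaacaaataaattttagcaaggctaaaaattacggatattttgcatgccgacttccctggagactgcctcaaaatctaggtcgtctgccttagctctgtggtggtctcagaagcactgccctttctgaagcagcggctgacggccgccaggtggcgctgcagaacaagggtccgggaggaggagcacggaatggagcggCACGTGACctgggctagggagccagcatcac
Slc3a1: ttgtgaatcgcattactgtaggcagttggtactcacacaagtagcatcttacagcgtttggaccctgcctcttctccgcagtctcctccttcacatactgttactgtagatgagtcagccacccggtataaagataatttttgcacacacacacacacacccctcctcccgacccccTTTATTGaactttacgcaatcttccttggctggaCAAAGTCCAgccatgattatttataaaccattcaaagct
Slc1a1: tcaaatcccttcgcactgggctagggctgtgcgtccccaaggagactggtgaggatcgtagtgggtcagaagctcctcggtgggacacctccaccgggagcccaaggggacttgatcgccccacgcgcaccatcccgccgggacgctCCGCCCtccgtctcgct

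Among the upstream 250 bases of the 10 genes (15 windows, since some genes have several starts), the HNF4 letters were found for Slc3a1 and in 0.384% of all 32851 windows. The CDX letters were also found for Slc3a1 and in 9.81% of all windows. The CARE letters occurred for Slc7a7, against 3.45% of windows, and the CLEAR letters for Slc36a1, against 1.85% of windows. The SP1 letters occurred for 5 of the genes, Slc1a1, Slc3a2, Slc6a20a, Slc7a7 and Slc7a8, and in 32.7% of windows. A gene was counted if any of its windows matched, and Slc7a7 has several, so counts of genes and shares of windows are not alike. Slc15a1, Slc6a19 and Slc7a9 held none of these letters in their windows, which says nothing of factors bound elsewhere. The gut expresses HNF4 from a pair of genes. RNA of Hnf4a lay between 171 and 235 FPKM in all mice and did not pass the test in any comparison. Hnf4g stood at 78.3, 85.5 and 63.1 FPKM in control mice, at 58.3, 48.7 and 31.1 FPKM in TAI mice and at 36.5, 112 and 68.2 FPKM in TAI/IVIg mice. All TAI mice lay below all controls in Hnf4g and the TAI/IVIg mice spanned both groups, and its log2 fold changes against control (−0.74, limma adjusted p = 0.157, and −0.20, adjusted p = 0.684) did not pass. Of 11 regulator genes tested, 4 fell in TAI against control, namely Nr1h4 (log2 fold change −1.09), Atf4 (−0.93), Cdx1 (−0.70) and Cdx2 (−0.66), and none rose, where 26.1% of all genes fell and 8.81% rose. Nr1h4 is also among the ileal genes summed above, and Atf4 is also among the amino acid response genes below, so these counts share genes. In TAI/IVIg against control, Nr1h4 (−1.58), Atf4 (−0.86) and Cdx1 (−0.53) fell and none rose, where 37.4% of all genes fell and 9.06% rose. With library medians set equal, the calls on Cdx1 (−0.42, adjusted p = 0.0972) and Cdx2 (−0.37, adjusted p = 0.265) were lost in TAI, and those on Atf4 (−0.37, adjusted p = 0.112) and Cdx1 (−0.04, adjusted p = 0.887) in TAI/IVIg against control, while Sp1 was called higher in both (0.42 and 0.54). The call on Nr1h4 was kept in both.

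Slc15a1 (chr14:121459621-121505252, minus strand) encodes PEPT1, the proton-coupled carrier of dipeptides and tripeptides in the brush border. Its RNA stood at 103, 81.2 and 61.6 FPKM in the control mice, at 194, 152 and 261 FPKM in the TAI mice and at 227, 229.7 and 247 FPKM in the TAI/IVIg mice. Every irradiated mouse lay above every control mouse, and the TAI/IVIg values fell within the wider TAI range. Slc15a1 rose by 1.29 (SE 0.23) on the log2(FPKM + 1) scale in TAI against control (limma adjusted p = 0.00443) and by 1.54 (SE 0.23) in TAI/IVIg against control (adjusted p = 0.00146). All changes below are on this scale, which understates those of low genes, and p-values were adjusted over the 13056 genes tested, with 0.05 as the threshold. The call held under each of 20 alternative settings in both comparisons, with log2 fold changes of 1.09 to 1.58 and of 1.35 to 2.03.

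Slc36a1 (chr11:55204350-55236330, plus strand) encodes PAT1, which carries small neutral amino acids such as glycine and proline together with protons, at the cell surface and out of lysosomes. It stood at 13.8, 13.7 and 10.1 FPKM in control mice, at 37.2, 33.6 and 37.5 FPKM in TAI mice and at 35.1, 66.9 and 70.7 FPKM in TAI/IVIg mice. The TAI mice were tightly grouped, TAI/IVIg mouse 1 lay among them, and TAI/IVIg mice 2 and 3 lay well above. Slc36a1 rose by 1.47 (SE 0.25) in TAI against control (limma adjusted p = 0.00370) and by 2.06 (SE 0.25) in TAI/IVIg against control (adjusted p = 0.000671), the largest rise of the 10 genes in both comparisons. Both calls held under all 20 alternatives, at 1.33 to 1.82 and 1.89 to 2.60. TAI/IVIg mice 2 and 3 were also the mice with the lowest Fabp6 and the highest Lct.

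**Figure D2:**
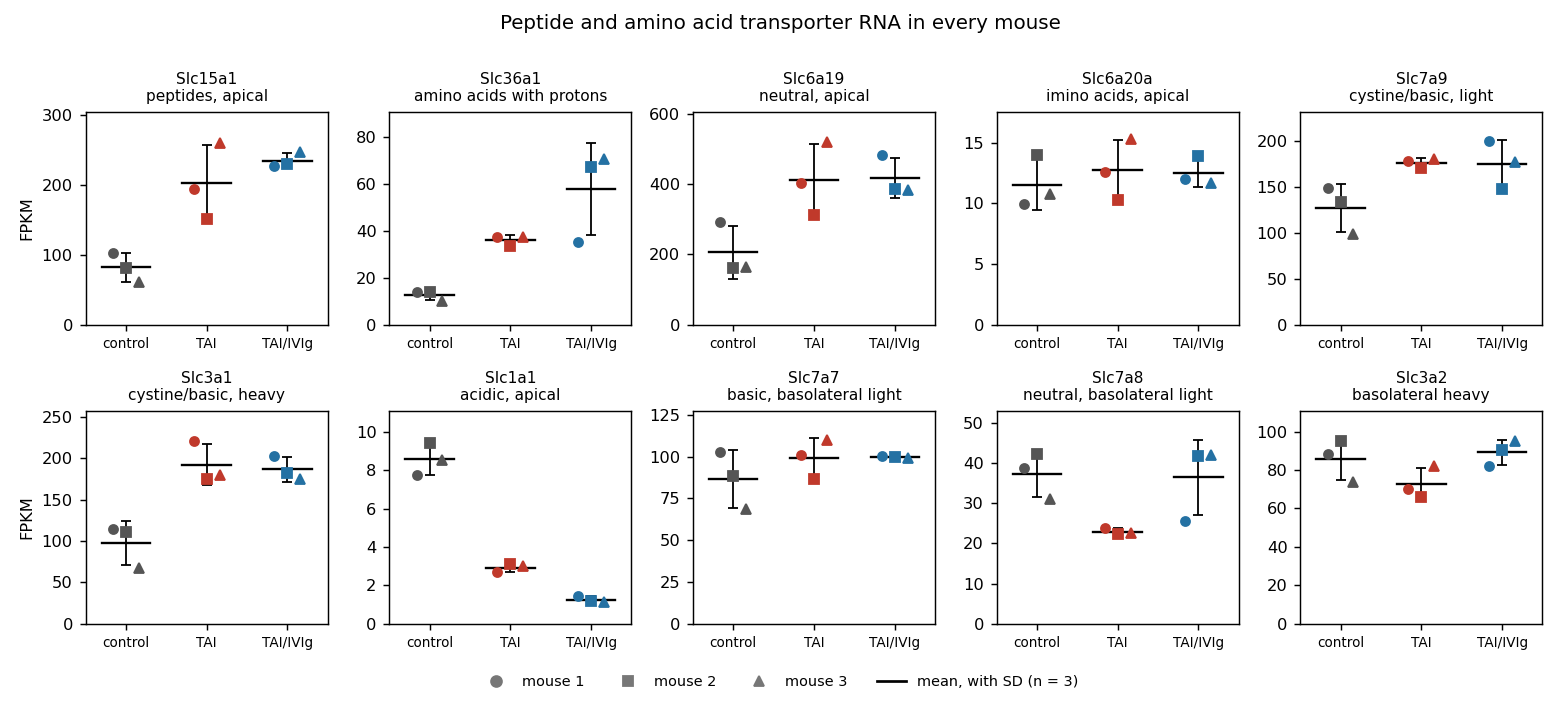
FPKM of each of the 10 transporters, a panel per gene with the substrate and side of the cell above it and the axis starting at 0. Points are mice, lines are group means and bars are the SD over 3 mice. In Slc15a1, Slc36a1, Slc6a19 and Slc3a1 all 6 irradiated mice lie above the 3 controls, in Slc1a1 all lie below them, and in Slc7a8 the 3 TAI mice (22.2 to 23.9 FPKM) lie below the controls (31.1 to 42.3 FPKM) while 2 TAI/IVIg mice do not.

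Slc6a19 (chr13:73679745-73704865, minus strand) encodes B0AT1, the main sodium-driven carrier of neutral amino acids in the brush border. It was the most abundant of the 10 RNAs per length in every group. Its values were 292, 160.4 and 163 FPKM in control mice, 402, 311 and 518 FPKM in TAI mice and 483, 385 and 384 FPKM in TAI/IVIg mice. All irradiated mice exceeded the controls, of which mouse 1 came closest at 292 FPKM. Slc6a19 rose by 1.02 (SE 0.27) in TAI against control (limma adjusted p = 0.0194) and by 1.07 (SE 0.27) in TAI/IVIg against control (adjusted p = 0.0121). The first call was lost without control mouse 2 (0.88, adjusted p = 0.0706), control mouse 3 (0.89, 0.0682), TAI mouse 1 (1.02, 0.0638) or TAI mouse 3 (0.84, 0.0642), and without the filter on low values (adjusted p = 0.0516). The second held under all 20 alternatives, at 0.92 to 1.56.

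Cltrn, the kidney partner of this carrier, was at most 0.278 FPKM and was not tested. Anpep, a brush border peptidase that binds the carrier, did not pass the test (log2 fold changes of 0.31 and 0.30, with values of 1909 to 3384 FPKM).

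Slc6a20a (chr9:123634770-123678885, minus strand) encodes SIT1, which carries proline and other imino acids. It stood at 9.95, 14.0 and 10.7 FPKM in control mice, at 12.6, 10.3 and 15.3 FPKM in TAI mice and at 12.0, 13.9 and 11.6 FPKM in TAI/IVIg mice. The 3 groups overlapped, and the log2 fold changes of 0.13 (SE 0.18, limma adjusted p = 0.597) and 0.12 (SE 0.18, adjusted p = 0.594) against control did not pass the threshold. Its close paralog Slc6a20b was at or under 0.0547 FPKM in all mice. Its exons share 563 bases with those of Gm17120 on the opposite strand, which stood at 0.929 to 2.43 FPKM, and 22 with those of Gm17200 and of Ccr9, and these reads cannot be fully told apart. With library medians set equal, a scaling described below, Slc6a20a was called higher in TAI/IVIg against control (0.61, adjusted p = 0.0330).

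Slc7a9 and Slc3a1 form the cystine and basic amino acid exchanger of the brush border, the system lost in cystinuria, with Slc7a9 (chr7:35448796-35466036, plus strand) as the light chain that transports and Slc3a1 (chr17:85028376-85064236, plus strand) as the heavy chain. Slc3a1 stood at 115, 111 and 67.5 FPKM in control mice, at 221, 176 and 180.2 FPKM in TAI mice and at 203, 182 and 175 FPKM in TAI/IVIg mice. Slc7a9 stood at 149, 134 and 98.4 FPKM in control mice, at 178, 169.9 and 180.5 FPKM in TAI mice and at 199, 147 and 177 FPKM in TAI/IVIg mice. The heavy chain separated all irradiated from all control mice, whereas TAI/IVIg mouse 2 and control mouse 1 overlapped in the light chain.

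Slc3a1 rose by 1.00 (SE 0.21) in TAI against control (limma adjusted p = 0.00803) and by 0.96 (SE 0.21) in TAI/IVIg against control (adjusted p = 0.00640), and was called under all 20 alternatives in both. Slc7a9 had log2 fold changes of 0.49 (SE 0.18, adjusted p = 0.0632) and 0.46 (SE 0.18, adjusted p = 0.0621), just outside the threshold. It was called higher in 3 of 20 alternatives in TAI and in 5 of 20 in TAI/IVIg against control, among them the fits without control mouse 1 (0.61, adjusted p = 0.0372, and 0.59, adjusted p = 0.0356) and, in the second, without TAI/IVIg mouse 2 (0.58, adjusted p = 0.0404). The exons of Slc3a1 share 601 bases with those of Prepl on the opposite strand, and the strand setting of the counting is not given in the sources used here. Prepl was at 7.19 to 8.52 FPKM in control and 13.7 to 17.6 FPKM in irradiated mice and rose by 0.95 and 0.91, so reads of the pair cannot be fully told apart.

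The ratio of Slc7a9 to Slc3a1 FPKM was 1.29, 1.21 and 1.46 in control mice, 0.806, 0.967 and 1.00 in TAI mice and 0.982, 0.809 and 1.01 in TAI/IVIg mice. All 6 irradiated mice lay below the 3 controls, with means of 0.925 ± 0.105 and 0.934 ± 0.109 against 1.32 ± 0.127 (SD, n = 3). The light chain RNA was thus the more abundant per length in control mice and about level with the heavy chain RNA in irradiated mice. No test of the ratios was made.

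**Figure D3:**
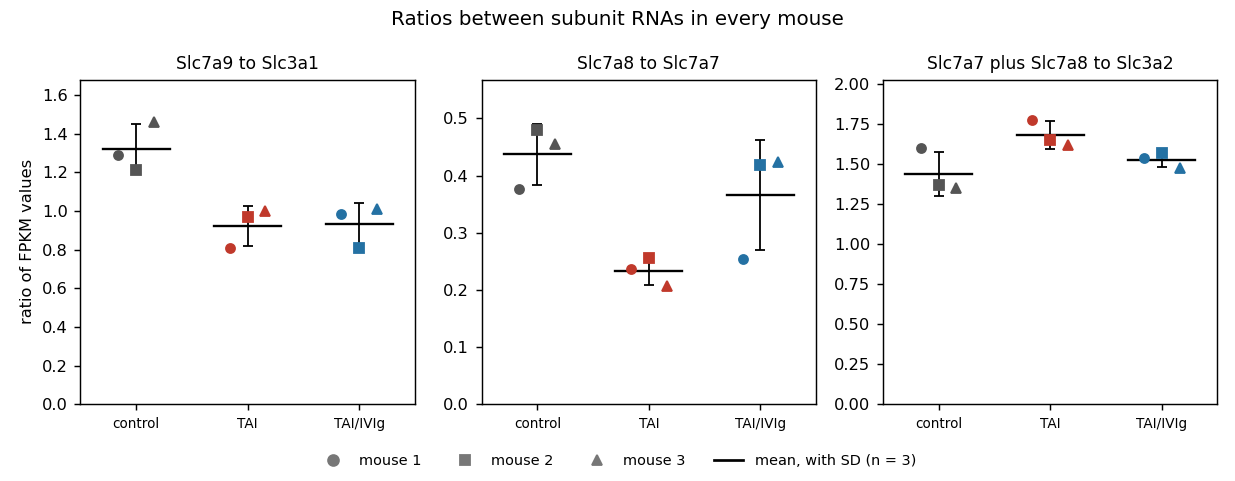
Ratios of FPKM values between subunit RNAs in each mouse, with group means and SD over 3 mice and axes starting at 0. Slc7a9 to Slc3a1 lies at 1.21 to 1.46 in control mice and at 0.806 to 1.01 in irradiated mice, and Slc7a8 to Slc7a7 is lowest in the TAI mice (0.206 to 0.256) together with TAI/IVIg mouse 1 (0.254).

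Slc1a1 (chr19:28835049-28913960, plus strand) encodes EAAT3, the sodium-driven carrier of glutamate and aspartate, which also takes up cysteine. It was the least abundant of the 10 RNAs in every group and the one that fell the most. Its values were 7.75, 9.43 and 8.53 FPKM in control mice, 2.69, 3.09 and 3.01 FPKM in TAI mice and 1.45, 1.20 and 1.13 FPKM in TAI/IVIg mice. The 3 groups formed 3 separate levels with no overlap, resting on 1112 to 1376, 380 to 454 and 157 to 215 reads. Slc1a1 fell by 1.28 (SE 0.13) on the log2 scale in TAI against control (limma adjusted p = 0.000487) and by 2.08 (SE 0.13) in TAI/IVIg against control (adjusted p = 5.20e-05).

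Both calls on Slc1a1 held in all 19 alternatives that kept the gene, with log2 fold changes from −1.55 to −0.99 and from −2.76 to −1.59, while a mean FPKM of at least 5 left it untested. The ratio of mean FPKM itself was 0.342 in TAI and 0.147 in TAI/IVIg against control. The order of the groups was that of the ileal genes Fabp6 and Slc10a2, and the part of gut position in the fall was not tested. Slc1a1 shares 2631 exonic bases with 4430402I18Rik on the opposite strand, which stood at 0.138 to 0.263 FPKM. The strand setting of the counting is not given, so how reads on the shared bases were counted is not known.

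On the basolateral side, Slc3a2 (chr19:8706882-8723369, minus strand) encodes the heavy chain 4F2hc, and its light chains Slc7a7 (chr14:54369442-54417780, minus strand) and Slc7a8 (chr14:54722209-54781946, minus strand) export basic and exchange neutral amino acids. Slc7a8 stood at 38.7, 42.3 and 31.1 FPKM in control mice, at 23.9, 22.2 and 22.7 FPKM in TAI mice and at 25.6, 41.7 and 42.1 FPKM in TAI/IVIg mice. All TAI mice lay below all controls, TAI/IVIg mouse 1 lay just above the TAI mice, and TAI/IVIg mice 2 and 3 lay within the control range. Slc7a8 fell by 0.67 (SE 0.20) on the log2 scale in TAI against control (limma adjusted p = 0.0317) and had a log2 fold change of −0.06 (SE 0.20, adjusted p = 0.827) in TAI/IVIg against control.

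The fall of Slc7a8 in TAI was the least stable of the calls, since 9 of 20 alternatives lost it. It was −0.64 (adjusted p = 0.0702) without control mouse 1, −0.58 (0.10) without control mouse 2, −0.70 (0.0808) without TAI mouse 1, −0.65 (0.0812) without TAI mouse 2 and −0.66 (0.0745) without TAI mouse 3. It was −0.38 (adjusted p = 0.246) with library medians set equal, −0.41 (0.190) with voom on TMM library sizes and −0.46 (0.105) with quantile normalization, and its adjusted p was 0.0685 without the filter.

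Slc7a7, whose loss causes lysinuric protein intolerance, stood at 103, 88.2 and 68.4 FPKM in control mice, at 101, 86.8 and 110.1 FPKM in TAI mice and at 100.5, 99.8 and 99.1 FPKM in TAI/IVIg mice. Slc3a2 stood at 88.4, 95.2 and 73.7 FPKM in control mice, at 70.0, 65.9 and 82.2 FPKM in TAI mice and at 82.1, 90.2 and 95.2 FPKM in TAI/IVIg mice. In both genes the groups overlapped. Slc7a7 had log2 fold changes of 0.21 (SE 0.17, limma adjusted p = 0.346) and 0.23 (SE 0.17, adjusted p = 0.282) against control, and Slc3a2 had −0.23 (SE 0.14, adjusted p = 0.234) and 0.06 (SE 0.14, adjusted p = 0.741). Slc3a2 turned to 0.05 in TAI against control with library medians set equal and with voom on TMM library sizes. Slc7a7 shares 232 exonic bases with Oxa1l on the opposite strand, which fell by 1.10 and 1.19 on the log2 scale.

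The ratio of Slc7a8 to Slc7a7 FPKM was 0.377, 0.479 and 0.455 in control mice, 0.237, 0.256 and 0.206 in TAI mice and 0.254, 0.418 and 0.424 in TAI/IVIg mice. The TAI mice lay below the controls, and TAI/IVIg mouse 1 lay with the TAI mice. The summed FPKM of the 2 light chains divided by that of Slc3a2 was 1.35 to 1.60 in control, 1.62 to 1.78 in TAI and 1.48 to 1.57 in TAI/IVIg mice.

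Per length, the order of the 10 RNAs in control mice ran from Slc6a19 (mean 205 FPKM) through Slc7a9 (127), Slc3a1 (97.7), Slc7a7 (86.4), Slc3a2 (85.7), Slc15a1 (81.9), Slc7a8 (37.3), Slc36a1 (12.5) and Slc6a20a (11.5) to Slc1a1 (8.57). Neighbours from Slc7a9 to Slc15a1 overlapped between mice, as did Slc36a1 and Slc6a20a. In TAI mice the order was Slc6a19 (410 FPKM), Slc15a1 (202), Slc3a1 (192), Slc7a9 (176), Slc7a7 (99.2), Slc3a2 (72.7), Slc36a1 (36.1), Slc7a8 (22.9), Slc6a20a (12.7) and Slc1a1 (2.93), with overlap between neighbours from Slc15a1 to Slc7a9. Slc15a1 thus stood sixth in control mice and second in both irradiated groups, and Slc36a1 passed Slc7a8. In TAI/IVIg mice the order of the genes was that of the TAI mice, and the neighbours that overlapped were Slc3a1 with Slc7a9 and Slc36a1 with Slc7a8. The 10 genes together summed to 593 to 920 FPKM in control, 1030 to 1410 FPKM in TAI and 1260 to 1370 FPKM in TAI/IVIg mice. Slc6a19 was the largest single term of that sum in every group.

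Counted over the 10 genes, 4 rose (Slc15a1, Slc36a1, Slc6a19, Slc3a1) and 2 fell (Slc1a1, Slc7a8) in TAI against control, where 8.81% of all genes tested rose and 26.1% fell. In 5 of the 10 the TAI mice lay wholly above the controls and in 2 wholly below, against 15.1% and 38.0% of all genes. In TAI/IVIg against control, the same 4 genes rose and Slc1a1 fell, where 9.06% of genes rose and 37.4% fell. There the mice lay wholly above the controls in 4 genes and wholly below in 1, against 11.5% and 44.3% of all genes. Both comparisons use the same 3 control mice, so their likeness is not independent evidence. The median log2 fold change of the 10 genes was 0.35 and 0.34, beside −0.24 and −0.39 over all genes tested. Of the 10 log2 fold changes, 7 and 8 were above 0.

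The direction of the table as a whole depended on scaling. With library medians set equal, the median over all genes became 0.05 and 0.10, and all genes called went from 1150 higher and 3411 lower to 2159 and 1823 in TAI, and from 1183 and 4880 to 2880 and 1894 in TAI/IVIg against control. Under that scaling the 10 genes had 4 higher and 1 lower in TAI and 7 higher and 1 lower in TAI/IVIg against control, with Slc7a9, Slc7a7 and Slc6a20a joining the latter. Slc15a1, Slc36a1, Slc6a19, Slc3a1 and Slc1a1 kept their call and direction in both comparisons under every scaling tried.

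**Figure D4:**
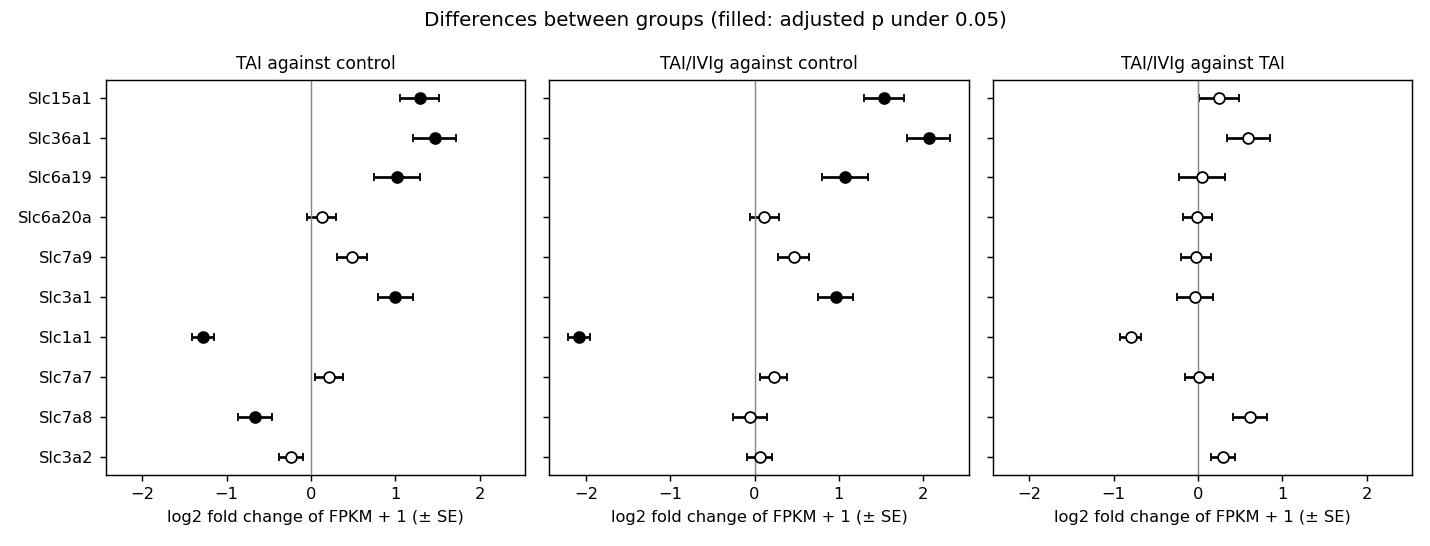
Log2 fold change of FPKM + 1 with its SE for the 10 transporters in 3 comparisons, from the limma fit of 9 mice. Filled points have an adjusted p under 0.05 over all 13056 genes. Slc36a1 (1.47 and 2.06) and Slc1a1 (−1.28 and −2.08) are the ends of the range against control, and no point is filled in TAI/IVIg against TAI.

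The comparison of TAI/IVIg with TAI asks what immunoglobulin changed in irradiated mice. None of the 10 genes passed the limma threshold, and 0.0% of the 13056 genes did (lowest adjusted p = 0.353). That count of 0 depended on the settings. A replicate block called 3 genes lower, Itln1 (−2.02, adjusted p = 0.0487), Tspan1 (−1.50, 0.0422) and Cbx3-ps8 (−2.59, 0.0422). Without the filter on low values 4 gene models that never exceeded 0.534 FPKM were called lower, among them Gm44589 and Hba-ps4. None of the 10 transporters was among either. At an unadjusted p under 0.05, 2 of the 10 were higher (Slc7a8, Slc36a1) and 1 lower (Slc1a1), against 1.64% and 11.2% of all genes. Voom on the recovered reads also called 0 of the 10, with either library size.

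Slc1a1 had a log2 fold change of −0.80 (SE 0.13, adjusted p = 0.353), and every TAI/IVIg mouse (1.13 to 1.45 FPKM) lay below every TAI mouse (2.69 to 3.09 FPKM). Slc7a8 had 0.61 (SE 0.20, adjusted p = 0.354), with every TAI/IVIg mouse above every TAI mouse. These 2 were the genes of the 10 whose mice did not overlap, against 16.1% of all genes wholly lower and 3.09% wholly higher. Slc36a1 had 0.60 (SE 0.25, adjusted p = 0.382), and its groups overlapped through TAI/IVIg mouse 1. Without TAI/IVIg mouse 1 the adjusted p was 0.0651 for each of these 3 genes, still past no threshold, and the log2 fold changes were −0.86, 0.84 and 0.91. Slc3a2 had 0.29 (SE 0.14, adjusted p = 0.412), Slc15a1 had 0.25 (SE 0.23, adjusted p = 0.638), and the other 5 lay between −0.04 and 0.05. TAI/IVIg mouse 1, the mouse nearest to the TAI group in Slc36a1 and Slc7a8, was also nearest to it in Fabp6.

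Markers of some other cell types were lower in the same comparison. The summed FPKM of 6 stromal and vascular genes was 56.8 to 70.8 in TAI and 18.2 to 36.6 in TAI/IVIg mice. In all 6 of them every TAI/IVIg mouse lay below every TAI mouse, where 16.1% of all genes tested were wholly lower. The sum of 6 Paneth cell genes was 1790 to 4950 in TAI and 136 to 1310 in TAI/IVIg mice, again with no overlap in any of the 6. The sum of 6 goblet cell genes was 3440 to 4350 and 1960 to 3360, with 3 of the 6 wholly lower. That of 6 muscle genes was 536 to 765 and 113 to 554, with 1 of the 6 wholly lower, close to the share over all genes. None of these genes passed the adjusted threshold in the fit without a block (Itln1, called with it, is on the Paneth list), while all 6 Paneth, 6 goblet and 6 muscle genes and 5 of 6 stromal genes had an unadjusted p under 0.05 in limma, beside the 11.2% of all genes that were lower by that measure. No gene of these 4 lists was at 0 in a group. The sum of 6 proliferation and stem cell genes was 8.40 to 11.1 in TAI and 2.71 to 7.06 in TAI/IVIg mice. Of these genes 4 were tested, all with log2 fold changes below 0, and 0 were wholly lower. Sums of some other lists overlapped between TAI and TAI/IVIg mice. They were 19.2 to 61.1 and 14.2 to 68.7 for immune genes, and 44.8 to 66.6 and 46.2 to 50.7 for enteroendocrine genes. For tuft cell genes they were 10.1 to 12.4 and 7.17 to 12.3. The part of any of these lists in the transporter differences was not tested.

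Beyond these 10, a list of 39 other amino acid and peptide transporters held 22 that passed the filter. In TAI against control 4 rose and 3 fell, where 8.81% of all genes rose and 26.1% fell, with a median log2 fold change of 0.05. Those that rose were Slc6a18 (2.03), a carrier of neutral amino acids known from the kidney, Slc7a15 (1.77), a light chain relative of Slc7a9, Slc6a14 (1.52), a carrier of neutral and basic amino acids, and Slc16a10 (0.93), the basolateral exit for aromatic amino acids. Those that fell were Slc7a5 (−1.31), the large neutral amino acid exchanger of growing cells, Slc7a1 (−1.08), a carrier of basic amino acids, and Slc6a6 (−0.93), the taurine carrier. Without TAI mouse 1 the count was 3 higher and 1 lower, and with library medians set equal Slc6a6 no longer passed (−0.64, adjusted p = 0.0695).

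Slc7a15 was the most abundant of these risers, at 54.6, 33.0 and 29.2 FPKM in control mice, at 120.3, 102 and 179.9 FPKM in TAI mice and at 146, 129 and 146 FPKM in TAI/IVIg mice. Slc16a10 stood at 23.0, 23.5 and 14.8 FPKM in control mice, at 37.5, 34.5 and 45.8 FPKM in TAI mice and at 41.6, 55.3 and 65.8 FPKM in TAI/IVIg mice. Slc7a5 stood at 2.67, 7.22 and 6.28 FPKM in control mice, at 1.06, 1.86 and 1.43 FPKM in TAI mice and at 0.840, 1.06 and 0.386 FPKM in TAI/IVIg mice. In each of the 3 genes every irradiated mouse lay on one side of all controls.

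In TAI/IVIg against control 3 of the 22 rose and 6 fell, with a median of −0.22, where 9.06% of all genes rose and 37.4% fell. The rises were those of Slc7a15 (1.87), Slc6a18 (1.68) and Slc16a10 (1.37), and the 3 largest falls those of Slc7a5 (−1.79), Slc1a5 (−1.51), the glutamine carrier ASCT2, and Slc7a1 (−1.50). In TAI/IVIg against TAI none passed. The smallest unadjusted p-values belonged to Slc1a5 (log2 fold change −1.09) and Slc36a4 (−0.44) among the lower and to Slc16a10 (0.44) and Slc43a2 (0.32) among the higher. Under the scaling to equal medians, 6 were higher and 2 lower in TAI and 5 higher and 5 lower in TAI/IVIg against control.

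**Figure D5:**
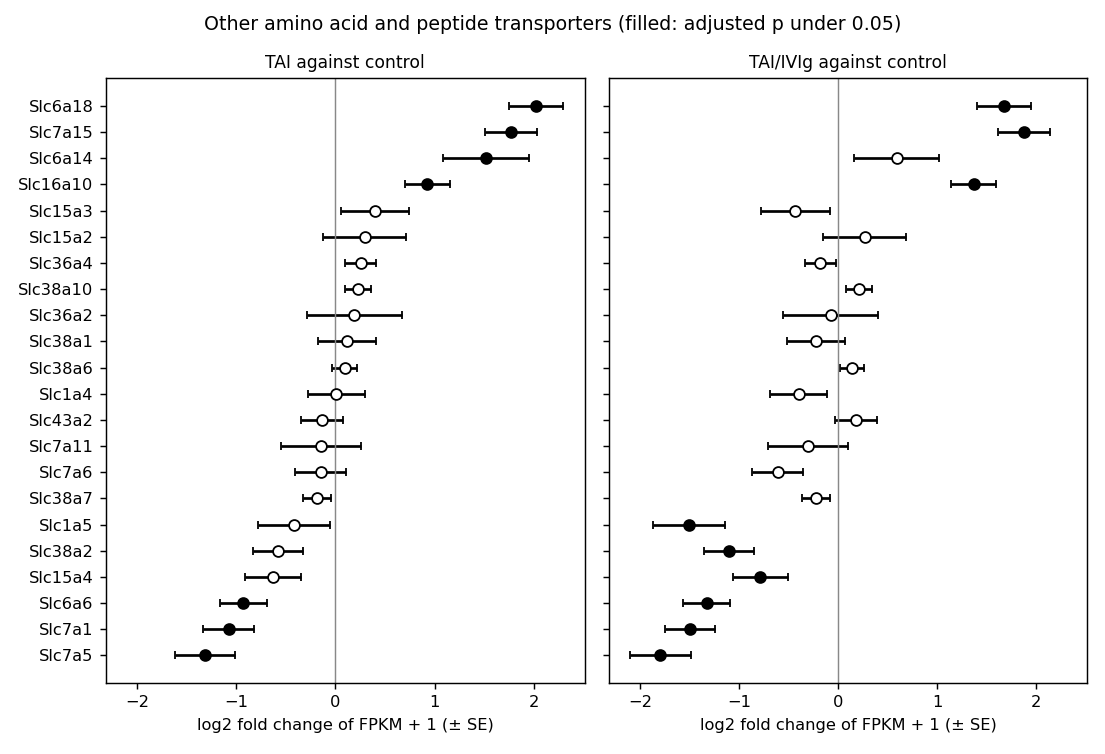
Log2 fold change of FPKM + 1 with its SE for the 22 other amino acid and peptide transporters that passed the filter, ordered by TAI against control. Filled points have an adjusted p under 0.05. Slc6a18, Slc7a15 and Slc16a10 are filled on the right in both panels, and Slc7a5, Slc7a1 and Slc6a6 on the left.

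Genes that work with these carriers were taken as a list of 8, of which 7 were tested, and 2 rose in both comparisons with control, where 8.81% and 9.06% of all genes rose. Slc9a3, the sodium and proton exchanger NHE3 that restores the proton gradient used by PEPT1, rose by 1.43 (SE 0.37, limma adjusted p = 0.0174) and 1.63 (SE 0.37, adjusted p = 0.00731). Pdzk1, a scaffold that anchors brush border carriers, rose by 1.49 (SE 0.21, adjusted p = 0.00182) and 1.67 (SE 0.21, adjusted p = 0.000783). The scaffold Slc9a3r1 (0.35 and 0.52), its relative Slc9a3r2 (0.50 and −0.16) and the sodium pump subunit Atp1b1 (−0.56 and −0.32) did not pass. With library medians set equal, Slc9a3r2 was called higher in TAI (0.78, adjusted p = 0.0377) and Slc9a3r1 in TAI/IVIg against control (1.01, adjusted p = 0.0282). With quantile normalization, Atp1b1 was called lower in TAI (−0.69, adjusted p = 0.0469). Arl6ip5, which binds the glutamate carrier EAAT3, fell by 0.41 (SE 0.15, adjusted p = 0.0446) in TAI/IVIg against control and had −0.32 (adjusted p = 0.114) in TAI, but with library medians set equal its value in TAI/IVIg against control turned to 0.08 (adjusted p = 0.664). None of the 7 passed in TAI/IVIg against TAI. Atp1b1 was lowest of the TAI/IVIg group in mouse 1 (369.7 FPKM, against 579.5 to 663 FPKM in mice 2 and 3).

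The genes with the most similar profiles over the 9 mice were found by the root mean square difference of log2(FPKM + 1) after centring each gene, among 13055 others. For Slc15a1 they were Alpi (0.163), the intestinal alkaline phosphatase, Rnd2 (0.17) and Prap1 (0.174). For Slc6a19 they were Slc6a8 (0.122), the creatine carrier, Mertk (0.124) and F2rl1 (0.143). For Slc1a1 the closest, Fam83e (0.183), Ckap4 (0.217) and Tspo (0.218), were farther away. For Slc3a2, which varied little, they were Sucla2 (0.0511), Ush1c (0.0594) and Gipc2 (0.061). All 9 mice enter these distances, so the shared difference between groups is part of each.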

How the data were processed

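RNA sequencing of 9 mice was analysed, with groups and mouse numbers as the labels give them. FPKM values were deposited by the authors for each mouse, and per the labels the processing used FastQC, Trimmomatic, STAR, featureCounts and DESeq2 with the builds mm10 and GRCm38, while versions, annotation and strand setting are not given in the sources used here. All 9 columns were used (0 were left out). Whole reads were recovered for 31684 of 31685 genes (within 0.02 of a whole number or rounding), and the lengths behind the FPKM values equalled GENCODE M21 exon lengths for 30626 genes, including all 10 transporters. Totals were 16282029 to 18242473 reads, so counting error was small for these genes and the spread between mice set the precision.

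From the FPKM values, values of log2(FPKM + 1) entered limma 3.58.1 (R 4.3.3, 1 term per group, all 9 mice, trended empirical Bayes), for the 13056 genes that reached an FPKM of 1 in 3 or more mice, with Benjamini-Hochberg adjustment over all of them and two-sided p-values. Tested on simulated data for TAI against control, the fit called 46 of 47, 37 of 48, 44 of 49 and 50 of 50 genes changed by −2, −1, 1 and 2 on the log2 scale. It also called 16 unchanged genes, with 12591 genes tested. The simulation gave all genes the same spread and changed few of them, unlike the data. Alternatives changed the pseudocount, filter, scaling, samples fitted, trend and replicate block, left out each mouse, or used voom on the recovered reads; the 6-mouse fit with a block was chosen after seeing the data. Same-numbered control and TAI mice deviated together from their group means, with correlations of 0.271, 0.241 and 0.308, above a rule of 0.1 in every pair. The correlations with TAI/IVIg mice ran from −0.296 to 0.201. Deviations from a group mean cancel out within the group, so these correlations are not independent and do not settle whether the numbers pair the mice. What a number means is not given in the sources used here.

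The transporters, the other gene lists and the motifs were chosen with earlier results of these data known. All 10 genes are named. Of the other transporters, the named ones are the up to 4 largest calls each way in TAI and 3 in TAI/IVIg against control and, in TAI/IVIg against TAI, the 2 smallest unadjusted p-values each way. All tested partners in the list and up to 3 regulators and amino acid response genes each way are named, with Cdx2, Hnf4a, Hnf4g, Sp1, Trib3, Nupr1, Cebpb, the genes called only under an alternative and the cell type and segment markers named after their values were seen. Slc7a13 is not used here, and some partner and regulator genes are not reported here. Promoter stretches came from RefSeq (GRCm38.p6) and gene positions from GENCODE M21 (GRCm38).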

Additional observations from a re-analysis of the deposited data

How the results depend on the processing

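Over 20 alternatives, 115 counts stayed within 1.5 times and 5 did not, and 545 single-gene values kept their direction and side of the threshold, while 14 lost a call, 12 gained one and 26 changed sign. The counts that stayed include those in TAI/IVIg against TAI, which were 0 throughout and had no call to lose. The members called in TAI/IVIg against control numbered 8 instead of 5 with library medians set equal and with voom on TMM library sizes. The other transporters called numbered 3 instead of 7 in TAI and 5 instead of 9 in TAI/IVIg against control with a mean FPKM of at least 5, which left 7 of 22 to test, and 4 to 7 in TAI with a mouse left out. Among the 10 genes, signs turned only in values called neither in the reported fit nor under that alternative. With library medians set equal, log2 fold changes became 0.0542 for Slc3a2 in TAI against control, 0.43 for Slc7a8 in TAI/IVIg against control, and 0.18 for Slc7a9, 0.17 for Slc3a1 and 0.20 for Slc6a20a in TAI/IVIg against TAI. With voom on TMM library sizes the same 5 were 0.0472, 0.40, 0.15, 0.13 and 0.16. With quantile normalization Slc7a8 was 0.19 in TAI/IVIg against control, and Slc6a20a 0.0917 and Slc7a7 −0.00271 in TAI/IVIg against TAI. With a mouse left out, the ranges that crossed 0 were −0.00513 to 0.26 for Slc6a20a in TAI against control, −0.0432 to 0.14 for Slc3a2 and −0.18 to 0.17 for Slc7a8 in TAI/IVIg against control, and, in TAI/IVIg against TAI, −0.14 to 0.23 for Slc6a19, −0.13 to 0.0914 for Slc7a9, −0.10 to 0.0655 for Slc3a1, −0.0764 to 0.0933 for Slc7a7 and −0.14 to 0.12 for Slc6a20a. The cause was not tested. A replicate block changed no call among the 10 genes, with 6, 5 and 0 called in the 3 comparisons as without it, also in the fit of 6 mice. Setting medians equal assumes that most genes do not change. The fewest reads behind a value of the 10 genes were 157.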

Other observations

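A list of 11 tested genes that are induced through ATF4 when amino acids run short, or that belong to serine and asparagine synthesis, was also examined beside the transporters. In TAI against control 6 of them fell and 1 rose, where 26.1% of all genes fell and 8.81% rose. Atf4, counted above among the regulators, was among those that fell. The largest falls were those of Chac1 (log2 fold change −2.14, limma adjusted p = 0.000487), which degrades glutathione, Asns (−1.63, adjusted p = 0.00094), the asparagine synthetase, and Psat1 (−1.59, adjusted p = 0.00763), an enzyme of serine synthesis. Asns stood at 19.9, 25.5 and 22.6 FPKM in control mice, at 6.77, 8.67 and 4.91 FPKM in TAI mice and at 3.58, 4.54 and 3.58 FPKM in TAI/IVIg mice, so all irradiated mice lay below all controls. Sesn2, a leucine sensor and p53 target, was the gene that rose (0.93, adjusted p = 0.00477). In TAI/IVIg against control 6 fell and 1 rose, again with Sesn2 (0.50, adjusted p = 0.0403) as the riser, where 37.4% of all genes fell and 9.06% rose. In TAI/IVIg against TAI none passed (4 lower and 1 higher at an unadjusted p under 0.05, against 11.2% and 1.64% of all genes). These comparisons share the 3 control mice. The median log2 fold change of the list was −0.94 and −0.86 against control, beside −0.24 and −0.39 over all genes. Proliferation and stem cell genes moved in the same mice, with 3 of 4 tested falling in both comparisons with control, beside 26.1% and 37.4% of all genes. The summed FPKM of these genes was 23.1 to 95.2 in control, 8.40 to 11.1 in TAI and 2.71 to 7.06 in TAI/IVIg mice. Their part in these values was not tested. With library medians set equal, Chac1, Asns, Psat1 and Sesn2 kept call and direction in both comparisons with control. Trib3 lost its call in TAI (−0.44, adjusted p = 0.167) and Atf4 its call in TAI/IVIg against control (−0.37, adjusted p = 0.112), while Nupr1 (0.86, adjusted p = 0.0199) and Cebpb (0.65, adjusted p = 0.0318) were called higher in TAI. The list then had 5 lower and 3 higher in TAI, and 5 lower and 1 higher in TAI/IVIg against control.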
